A study of Mus musculus with 10 samples.

Results

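The ATAC peaks described here were called in naive B cells and had no counterpart in plasma cells. ATAC-seq inserts sequencing adapters into open chromatin with a transposase, and a peak is a stretch where insertions pile up. A peak of the naive B cell list on chromosomes 1 to 19 was a member if no peak of the plasma cell list overlapped it by even 1 base. Of 28614 naive-list peaks on these chromosomes, 8816 met the rule, which is 30.8% (95% exact binomial interval 30.3 to 31.3%, counting error only). The other 19798 naive-list peaks are called shared. The plasma list held 29405 peaks, of which 9769 overlapped no naive peak and are called plasma-only, so the 2 lists together held 58019 peaks. Members were chosen by the overlap of both lists, so counts, scores, widths and positions of peaks are descriptions and were not tested.

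Naive B cells are resting lymphocytes that carry an antigen receptor on their surface. When activated, they can become plasma cells, which secrete antibody and switch off much of the B cell programme under the repressor Blimp-1, the product of Prdm1. Open chromatin marks promoters and enhancers that are bound by transcription factors. Chromosomes also fold into an open, gene-rich A compartment and a closed, gene-poor B compartment, and regions of like compartment touch more often than regions of unlike compartment.

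The series holds 10 samples of C57BL/6 mouse cells, of which 6 are used here, with 1 plasma cell and 1 naive B cell library in each of 3 assays: ATAC-seq, RNA-seq and TCC, a contact assay like Hi-C in which ligation takes place on beads. The ATAC plasma cells were CD138+ B220- IgD- CD4- CD8- Gr1- Ter119- cells sorted from the bone marrow of wild-type mice, and the ATAC naive B cells were CD23+ IgD+ cells sorted from wild-type spleen, with 50000 cells in each library. The TCC plasma cells came from Blimp-GFP mice. Their source field names an ex vivo sort, while their protocols name splenic CD23+ cells cultured with 10 µg/ml LPS for 3 days and then sorted for GFP. The TCC naive B cells were wild-type CD23+ cells purified with magnetic beads, for which the labels give no LPS. The RNA plasma cells were wild type and carry conflicting labels too, in vitro activated in one field and sorted from bone marrow in another, and the RNA naive B cells were wild-type ex vivo cells. ATAC, RNA and TCC plasma cells may therefore be of different origin. With 1 library per cell type and assay, replicate spread is unknown for every difference below, and no p-value is given. Peaks of 1 list and bins of 1 map share a library and are not replicates. The 95% intervals on medians come from order statistics over peaks or bins and cover counting error only.

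Estimated RNA counts came to 43.5 M for plasma cells and 37.0 M for naive B cells. Markers followed the labels for the most part. The 6 measured naive B cell markers summed to 495 TPM (a transcript level scaled for length and depth) in plasma cells and 6183 TPM in naive B cells, and 6 plasma cell markers summed to 7995 TPM in plasma cells and 1019 TPM in naive B cells. Sdc1, which encodes the sorted antigen CD138, went the other way, at 5.38 TPM in plasma cells and 11.1 TPM in naive B cells. Markers of other cell types were low in plasma cells and higher in naive B cells. The 4 T and NK cell genes summed to 0.572 TPM in plasma cells and 23.0 TPM in naive B cells. Plasma cells first, 4 myeloid genes summed to 0.718 and 127 TPM, and 3 erythroid genes to 0.0142 and 32.8 TPM. Lyz2, a myeloid gene, reached 55.2 TPM in naive B cells. The part of other cell types in the naive-only peaks was not tested, since RNA and ATAC libraries were separate. In bulk RNA, fewer cells of a type and less RNA per cell cannot be told apart.

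Naive-only peaks were weaker than shared peaks. The authors' peak caller gave each peak a score, which is used here only to rank peaks within a list, and the lowest score in the naive list was 50.01. The median score was 97.4 in naive-only peaks (95% interval 95.5 to 99.2, middle 50% of peaks from 67.2 to 173) and 328 in shared peaks (middle 50% from 148 to 586). Scores below 100 made up 51.5% of naive-only peaks and 14.8% of shared peaks. Among the strongest peaks of the list, those with a score of at least 500, 252 were naive-only and 6390 were shared. Plasma-only peaks had a median score of 115 within their own list. Because a score depends on its library, it says nothing about the same place in the other cell type.

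The share of peaks without a partner was lower in each higher score class, in both lists. In the naive list, 64.4% of peaks with a score of 50 to 75 were naive-only, 43.0% of those at 100 to 150, 24.4% at 200 to 300 and 3.79% at 500 or more. In the plasma list, 66.8% of peaks at 50 to 75 were plasma-only, 51.8% at 100 to 150, 35.3% at 200 to 300 and 4.43% at 500 or more. The lists show no plasma signal below the calling limit, so a member may have had plasma signal that was not listed.

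**Figure D1:**
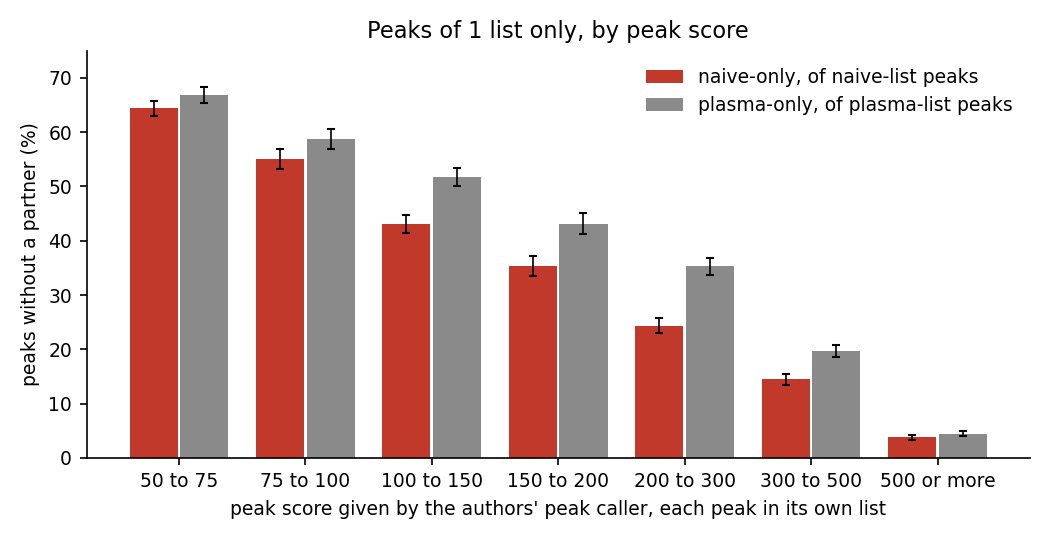
Share of peaks that overlap no peak of the other list (vertical axis, percent) by the peak's own score (horizontal axis, 7 classes), for naive-only peaks among naive-list peaks (red) and plasma-only peaks among plasma-list peaks (grey). Bars start at 0 and whiskers are 95% exact binomial intervals for counting error only. Both shares are lower at each step in score, with 64.4% in the lowest and 3.79% in the highest class of the naive list.

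The rule has a sharp edge, and few peaks stood close to it. The members nearest to a plasma peak were separated from it by 2, 5, 6, 7 and 10 bases. The first of these is chr15:11937047-11939133 (mm9, as are all positions here), with a score of 203. In all, 35 members lay within 100 bases of a plasma peak and 434, or 4.92%, within 1 kb. On the other side of the rule, the shared peaks with the smallest overlap were covered by 7, 7, 10, 14 and 15 bases of plasma peak. Only 17 shared peaks had less than 100 bases of overlap and 324 had less than 50% of their length covered. The median shared peak was covered over 100% of its length.

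Members were narrower than shared peaks over the whole list, while widths were close between peaks of the same score class below 200. The median width was 1351 bp in naive-only peaks (95% interval 1344 to 1360) and 1806 bp in shared peaks. In the score class of 50 to 75 the medians were 1138 bp in naive-only and 1131 bp in shared peaks, and at 150 to 200 they were 1498 bp and 1516 bp, naive-only first. In the higher classes members were narrower, at 1630 bp in naive-only and 1673 bp in shared peaks for scores of 200 to 300, and 2045 bp in naive-only and 2265 bp in shared peaks for 500 or more. All members together covered 13.3 Mb, which is 24.7% of the length of the naive list. The widest member was chr8:129113253-129121239, with 7987 bp and a score of only 68.0, and the other 4 of the widest 5 had scores of 52.5 to 220. The widest members were thus not among the strongest.

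The highest score, 1324, belonged to chr15:57722874-57725162, which lay 12.4 kb from the nearest shared peak. The next were chr12:77652597-77654765 with a score of 1311, chr13:33025778-33028030 with 1306, chr5:150437644-150440150 with 1260 and chr10:86166687-86170090 with 1255. The 10 highest scores ran from 1324 to 1042, and these peaks lay 2.98 to 39.9 kb from a shared peak. By comparison, the highest score of a shared peak was 3100.

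Members lay farther from shared peaks than shared peaks lay from each other. The gap from a member to the nearest shared peak had a median of 23.6 kb (95% interval 22.5 to 24.8, middle 50% from 7.85 to 89.2 kb), against 14.4 kb from a shared peak to the next shared peak. Plasma-only peaks lay closer, with a median of 17.6 kb. The difference was largest in the tail: 23.5% of naive-only peaks were over 100 kb from any shared peak, beside 10.3% of plasma-only peaks and 6.30% of shared peaks. Gaps over 500 kb were found for 6.43% of naive-only and 2.08% of plasma-only peaks. Within each of the 7 score classes the median gap was 18.7 to 30.0 kb for naive-only peaks and 11.3 to 18.6 kb for shared peaks. The median gap from a member to the nearest plasma-only peak was 88.6 kb. The like gap from shared peaks was not measured, so this value alone shows no separation.

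The most isolated members were weak. The 5 members farthest from a shared peak had scores of 50.07 to 79.0, and 4 of them lay on chromosome 15 between positions 17097898 and 18751906. The farthest, chr15:17600308-17602328, was 4598 kb from a shared peak and had a score of 50.07. Another, chr15:18750831-18751906, lay only 0.615 kb from a plasma-only peak. The median score was 98.2 for members within 10 kb of a shared peak, 109 at 10 to 25 kb, 106 at 25 to 100 kb, 88.6 at 100 to 500 kb and 68.3 beyond 500 kb. Scores of at least 100 were found in 48.8% of the nearest class and 23.1% of the farthest.

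**Figure D2:**
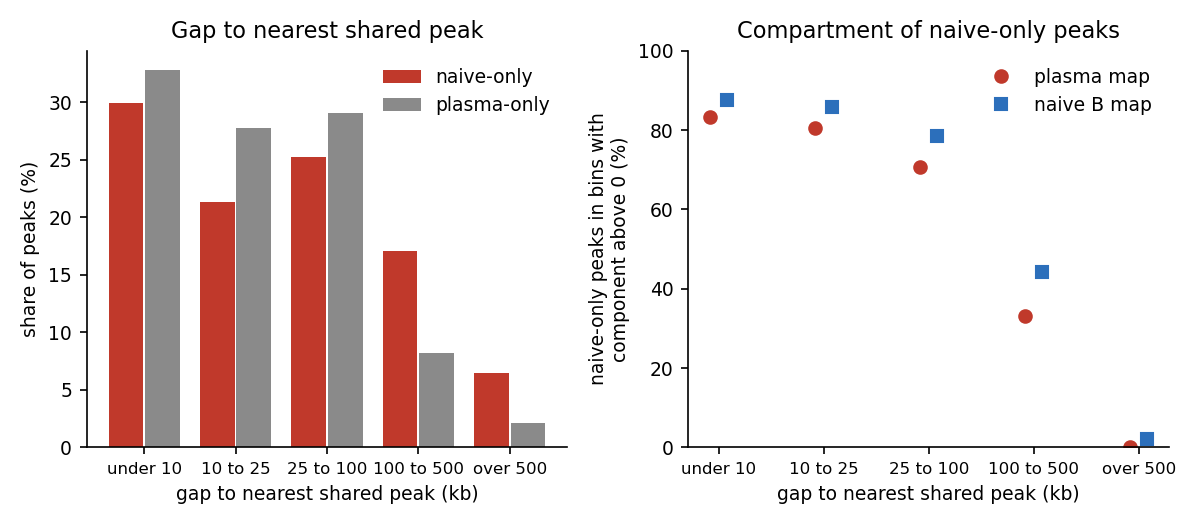
Left, share of naive-only peaks (red) and plasma-only peaks (grey) in 5 classes of the gap to the nearest shared peak in kb, with bars from 0. Right, share of naive-only peaks in each class whose 500 kb bin has a compartment component above 0, in the plasma cell map (circles) and the naive B cell map (squares). Gaps of 100 to 500 kb hold 17.1% of naive-only and 8.20% of plasma-only peaks, and the share in positive bins is lower at each greater distance in both maps.

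Members gathered in small groups and in long runs less often than shared peaks did. They stood in long runs more often than plasma-only peaks did. The classes differ in size: shared peaks were 69.2% and members 30.8% of the naive list, and plasma-only peaks 33.2% of the plasma list. A larger class has longer runs and nearer neighbours even where its peaks are scattered, and values for a scattered order were not computed. Of the members, 27.6% lay within 12500 bp of another member, beside 31.7% for plasma-only peaks and 45.3% for shared peaks. Joining members at gaps of at most 12500 bp gave 7463 groups, of which 6381 were a lone peak, 209 had 3 or more members and the largest had 7. That largest group, chr13:37403905-37449331, held scores of 52.0 to 292. The next, with 6 members, was chr1:175897078-175948093, and 3 further groups of 5 members lay at chr3:126506234-126533727, chr13:30819442-30862594 and chr16:30607400-30646944.

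A run is a series of naive-list peaks that follow each other along a chromosome and are all members. There were 293 runs of at least 5 members, which held 2022 members or 22.9% of all, while 215 such runs of plasma-only peaks held 14.1% of the plasma-only peaks. Runs of at least 5 shared peaks held 64.7% of the shared peaks, and the longest had 60. Runs of at least 10 numbered 38 for naive-only and 16 for plasma-only peaks. Of the 293 runs, 201 had no plasma peak of any kind between their first and last member. The longest, chr6:69146772-69991533, had 30 members and no plasma peak over 845 kb. The others of the 5 longest were chr13:9881293-12303291 with 23 members, chr15:68758177-71748844 and chr12:42979026-45313498 with 19 each, and chr7:83188007-85867308 with 18. These 4 held 0, 0, 2 and 1 plasma peaks, in that order, over 2334.5 to 2990.7 kb. These 5 runs are broad stretches of the genome with scattered peaks in the naive list and at most 2 in the plasma list.

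By chromosome, the naive-only share of the naive list was lowest on chromosome 9, at 25.6% (interval 23.3 to 28.0%). It was highest on chromosome 13, at 36.1% (33.6 to 38.6%). These chromosomes were picked as the ends of the range after values were seen. The intervals treat peaks as independent, while members often followed each other in runs. They therefore cannot decide whether the chromosomes differ, and this was not tested. On the same chromosomes the plasma-only share of the plasma list was 36.1% on chromosome 9 and 33.2% on chromosome 13.

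Members were counted at 15 loci of regulators of B cell and plasma cell identity, chosen with earlier results of these data known and placed at approximate mm9 positions from general knowledge, with 100 kb on each side. Together the windows held 118 members. The antibody light chain locus Igk, whose many V segments recombine in B cell development, had 57 members among 85 naive-list peaks, with scores of 51.2 to 384, beside 38 plasma peaks. The longest run of all lies inside it. The heavy chain locus Igh had 15 members of 29 peaks and the lambda light chain locus Igl 5 of 14. These shares, 67.1%, 51.7% and 35.7%, stand beside 30.8% over the whole list.

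Genes of the B cell programme had shares of members on either side of the 30.8% over the whole list: 62.5% at Pax5, 60% at Bcl6, 29.2% at Ebf1 and 20.8% at Bach2. Pax5, the factor that maintains B cell identity, had 5 members of 8 naive-list peaks, with scores of 85.7 to 198, and its RNA was 15.7 TPM in plasma cells and 346 TPM in naive B cells. Bcl6, the germinal centre repressor, had 3 of 5 peaks, with 3.82 TPM in plasma cells and 59.2 TPM in naive B cells. Ebf1, an early B cell factor, had 7 of 24, with 20.0 TPM in plasma cells and 102 TPM in naive B cells. Bach2, a repressor that holds back plasma cell differentiation, had 5 of 24, none with a score above 138, with 3.88 TPM in plasma cells and 76.7 TPM in naive B cells. At Ebf1 and Bach2 most naive-list peaks were shared, although RNA was lower in plasma cells.

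Members also stood at genes whose RNA was higher in plasma cells. Irf4, a factor needed for plasma cells, had 7 members of 10 naive-list peaks, and the group of 5 at chr13:30819442-30862594 lies there. Its strongest member, chr13:30877124-30879224, had a score of 663. Irf4 RNA was 221 TPM in plasma cells and 96.6 TPM in naive B cells. Prdm1 had 4 of 8, among them chr10:44176564-44180664 with a score of 480 and chr10:44167186-44170403 with 366, and its RNA was 249 TPM in plasma cells and 2.29 TPM in naive B cells. Ell2, an elongation factor that favours secreted antibody mRNA, had 3 of 8, including chr13:75843468-75848587 with a score of 797, with 127 TPM in plasma cells and 19.6 TPM in naive B cells. Hspa5, the main chaperone of the endoplasmic reticulum, had 1 of 7, and that peak, chr2:34626550-34628653, had a score of 953, with 1483 TPM in plasma cells and 314 TPM in naive B cells. These strong members are places with a naive peak and no listed plasma peak beside genes with more RNA in plasma cells. The same windows also held plasma-only peaks: 6 of 9 plasma peaks at Irf4, 4 of 8 at Prdm1, 3 of 8 at Ell2 and 1 of 7 at Hspa5. The shares of members in these windows were 70%, 50%, 37.5% and 14.3%, in that order, beside 30.8% over the whole list. Within 20 kb of these genes, plasma-only peaks numbered 1 at Irf4, 0 at Prdm1, 2 at Ell2 and 0 at Hspa5. Members there were 6 of 6 naive-list peaks at Irf4, 2 of 3 at Prdm1, 3 of 4 at Ell2 and 1 of 3 at Hspa5.

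Among the other genes of the unfolded protein response and antibody secretion, Ern1, which encodes the stress sensor IRE1, had 5 of 10 naive-list peaks as members, none of them within 20 kb of the gene, with 22.9 TPM in plasma cells and 5.89 TPM in naive B cells. Xbp1, the factor that Ern1 activates by splicing, had 1 of 6, outside 20 kb, with a score of 80.9, with 939 TPM in plasma cells and 109 TPM in naive B cells. Atf4, a stress response factor, had 0 of 4, with 441 TPM in plasma cells and 325 TPM in naive B cells. Jchain, which joins antibody units into polymers, had 0 of 6, with 3026 TPM in plasma cells and 510 TPM in naive B cells. Of the 12 single genes, members were present within 100 kb at 4 of 4 with lower RNA in plasma cells and at 6 of 8 with higher RNA, and within 20 kb at 4 of 4 and 4 of 8. The share of such windows over other genes was not determined. A window with more naive-list peaks is also more likely to hold a member, and the 2 groups of genes differed in this. Within 20 kb, Bach2 had 19 naive-list peaks, Ebf1 16, Pax5 7 and Bcl6 2. The 8 genes with higher RNA had from 2 at Jchain to 6 at Irf4. The counts of windows therefore show no link between members and RNA.

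To set the members beside chromosome folding, they were assigned to bins of 500 kb by their midpoint. Contacts come from other cells and another assay than the rule, with 1 map per cell type. Of 4955 bins, 4536 had enough contacts in both maps to be used, and these held 8449 members. Between chromosomes 1 to 19 the maps held 7.19 M read pairs in plasma cells and 8.56 M in naive B cells. At least 5 members were found in 572 bins, which held 44.4% of all members, while 1838 bins had none. In addition, 576 bins held members but no plasma peak at all, with 982 members or 11.1%, and 23 of these bins had at least 5 members. The bins with the most members were chr6:69500001-70000000 with 18, chr1:175500001-176000000 with 17, chr6:69000001-69500000 with 16 and chr14:16500001-17000000 with 15, followed by chr5:99500001-100000000 and chr10:95500001-96000000 with 14 each. The first 3 had too few contacts to be used.

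Members stood more often in the B compartment than other peaks. The compartment component is the leading pattern of contacts within a chromosome, given in standard deviations, with its sign set so that bins with more ATAC peaks are positive. In the plasma map, 66.6% of naive-only peaks lay in bins with a positive component, beside 84.3% of plasma-only and 85.8% of shared peaks. In the naive map the shares were 73.0% of naive-only, 86.0% of plasma-only and 88.5% of shared peaks. The gap was present in each of the 7 score classes: in the naive map, naive-only peaks ranged from 66.8 to 80.8% and shared peaks from 86.6 to 91.9%. The share varied more with distance. In the plasma map 83.3% of members within 10 kb of a shared peak lay in positive bins, 33.1% of those at 100 to 500 kb, and 0.207% of those beyond 500 kb. In the naive map these 3 shares were 87.6%, 44.2% and 2.07%.

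Bins in which members made up much of the naive list had a lower component in plasma cells. Bins were classed by the share of members among their naive-list peaks, for bins with at least 5 such peaks, a split made after values were seen. Where members were 50% or more, in 429 bins, the median component was 0.15 in plasma cells and 0.51 in naive B cells. The median difference, plasma minus naive, was -0.20 (95% interval -0.25 to -0.16). Where they were 25 to 50%, in 710 bins, it was -0.04, and where they were under 25%, in 1070 bins, it was 0.00. The component was lower in plasma cells by at least 0.5 in 21.4% of the bins with 50% or more members and 3.64% of those under 25%, beside 7.47% of all used bins. It was higher by at least 0.5 in 0.699% of the bins with 50% or more members, beside 1.23% of all. The number of members alone gave less: bins with at least 5 members had a median of -0.09, beside -0.04 over all bins.

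**Figure D3:**
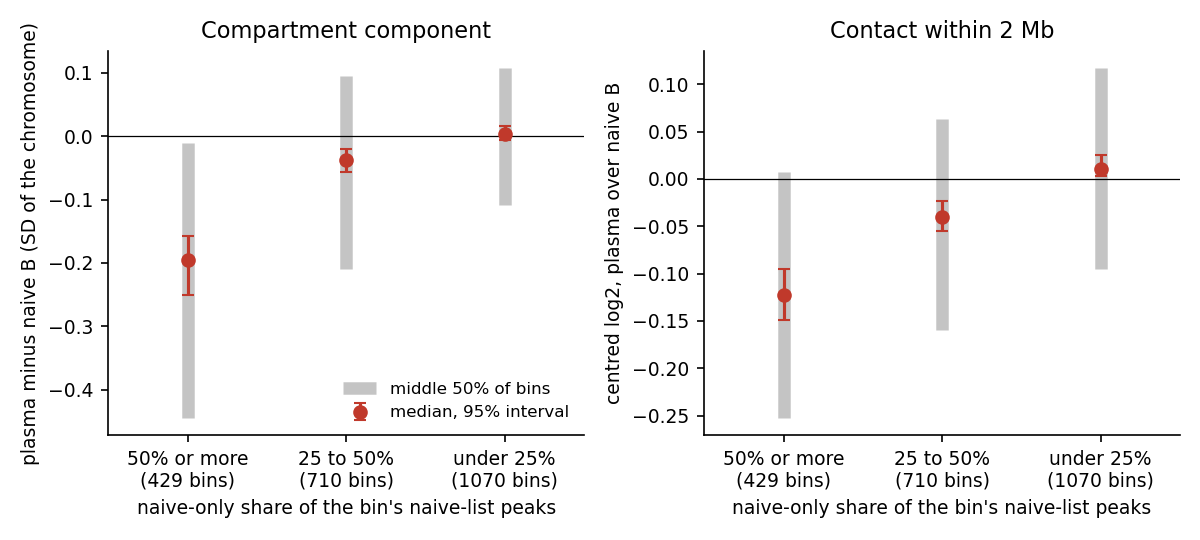
Change in compartment component (left, plasma minus naive B, in standard deviations of the chromosome) and in contact within 2 Mb (right, centred log2 of plasma over naive B) of 500 kb bins with at least 5 naive-list peaks, in 3 classes by the share of those peaks that are naive-only. Points are medians with 95% order-statistic intervals, and grey bars span the middle 50% of bins. Both medians are lowest where naive-only peaks are 50% or more, at -0.20 and -0.12.

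The order of the 3 share classes was the same within bins of similar starting compartment, and within bins of similar peak number where these had at least 5 naive-list peaks. Among bins with a naive component of 0 to 1, the median difference was -0.31 with 50% or more members (190 bins), -0.08 at 25 to 50% (282 bins) and -0.01 under 25% (327 bins), beside -0.15 over all 1094 such bins. Bins of this range with at least 5 members had the same median as all of them, -0.15. Among bins with 5 to 9 naive-list peaks, the median was -0.23 with 50% or more members and -0.02 under 25%. With 10 to 14 peaks it was -0.16 and 0.01, and with 15 or more it was -0.17 and 0.04, the higher share first in each. Bins with fewer naive-list peaks did not follow it. With 1 to 2 peaks the median was -0.03 at 50% or more members (643 bins) and -0.10 under 25% (305 bins), and with 3 to 4 peaks it was -0.10 at 50% or more, -0.10 at 25 to 50% and -0.08 under 25%. The number of plasma-only peaks went with the value. Bins with at least 5 members and at most 1 plasma-only peak (203 bins) had a median of -0.27, and 25.1% of them were lower by at least 0.5. Bins with at least 5 members and at least 5 plasma-only peaks (140 bins) had a median of 0.02. Their starting compartments differed, with a median naive component of 0.45 in the 203 bins and 1.13 in the 140 bins. Starting compartment and number of plasma-only peaks therefore cannot be told apart in this comparison. The reverse class, 322 bins with at least 5 plasma-only peaks and at most 1 member, had a median of 0.02 as well, and 3.73% of them were higher by at least 0.5.

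The order of the highest and lowest share class was the same on each chromosome. Set against bins under 25% members of the same chromosome, the median difference was lower on 19 of 19 chromosomes. The 2 medians lay apart by -0.01 on chromosome 2 to -0.45 on chromosome 17. On chromosome 2 they were -0.02 and -0.01, beside -0.04 over all used bins. The classes were not matched for starting compartment, with a median naive component of 0.51 at 50% or more members and 1.08 under 25%. Chromosomes of 1 map share a library, so they are not replicates.

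**Figure D4:**
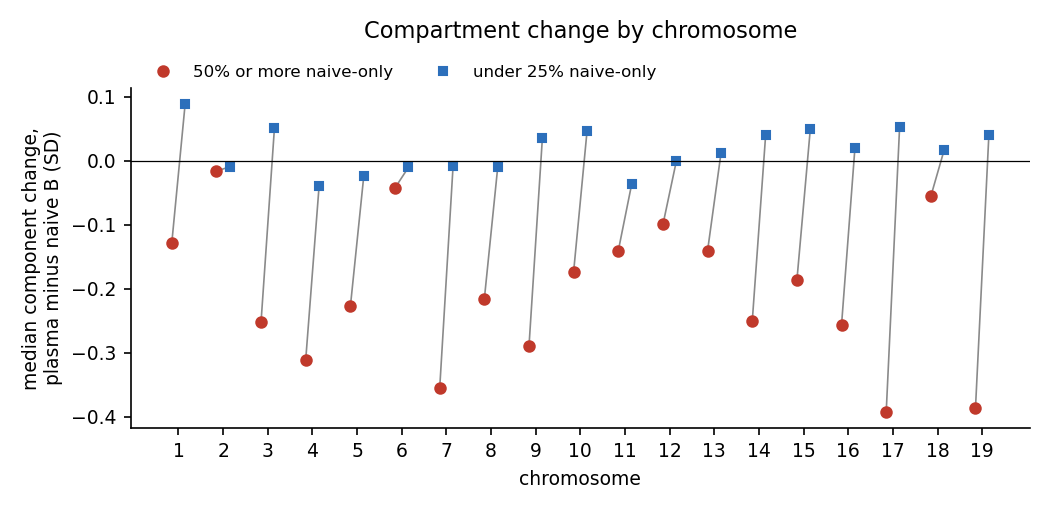
Median difference in compartment component (plasma minus naive B, in standard deviations) on each of the 19 chromosomes, for 500 kb bins with 50% or more naive-only peaks (red circles) and under 25% (blue squares) among at least 5 naive-list peaks. Lines join the 2 medians of a chromosome. The red circle is the lower one on each chromosome, with the smallest gap on chromosome 2.

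Among used bins with at least 5 members, the lowest difference in component was at chr13:111000001-111500000, with 12 members among 15 naive-list peaks and a component of -0.55 in plasma cells and 0.83 in naive B cells. Next came chr3:80500001-81000000, chr19:31000001-31500000, chr1:185500001-186000000 and chr7:122000001-122500000, with differences of -1.36, -1.20, -1.10 and -1.08. The last of these had 6 naive-list peaks, all members, and no plasma peak. Over all 556 used bins with at least 5 members the component was lower in 66.5%, beside 60.4% of all used bins, and it was higher by at least 0.5 in 2 of them. The highest difference was 0.81, at chr14:94500001-95000000, with 5 members and 4 plasma-only peaks. In 21 used bins with at least 5 members and no plasma peak, the component was lower in plasma cells in 18, beside 60.4% of all used bins, with a median of -0.48 (95% interval -0.76 to -0.07). Of the 38 runs of at least 10 members, 33 had used bins. The component over the run was lower in plasma cells in 27 of these 33, beside 60.4% of all used bins taken singly. The median over these runs was -0.24 (interval -0.35 to -0.04). The median over all used bins was -0.04, so the upper end of the interval is close to the value of an ordinary bin. The most negative of these runs, chr10:37280854-38787338 with 13 members and no plasma peak, had -0.36 in plasma cells and 0.34 in naive B cells.

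Contacts within 2 Mb were also lower around members, relative to other bins. Over all used bins, log2 of plasma over naive contact had a median of 0.45 within 2 Mb, 0.25 from 2 to 20 Mb, -0.41 beyond 20 Mb and -0.31 between chromosomes. All values that follow are relative to these medians. Within 2 Mb, bins with 50% or more members had a median of -0.12 (interval -0.15 to -0.09) and bins under 25% had 0.01. A value of -0.2 or less was found in 34.0% of bins with 50% or more members and 10.1% of those under 25%, beside 14.8% of all used bins. By number of members, the medians were -0.11 for at least 5, -0.05 for 3 to 4, 0.01 for 1 to 2 and 0.05 for none. From 2 to 20 Mb the direction was the opposite, with medians of 0.10 for 50% or more members and -0.06 for under 25%, and beyond 20 Mb they were 0.10 and -0.10. Bins with 50% or more members were lower within 2 Mb than those under 25% on 18 of 19 chromosomes, and lower from 2 to 20 Mb on 1 of 19.

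The total contact of member bins with other chromosomes differed little. Bins with at least 5 members had a median of -0.04 (interval -0.05 to -0.02) and those with no member 0.03. A value of -0.2 or less was found in 17.5% of bins with 50% or more members, beside 11.2% of all used bins. The lowest value among bins with at least 5 members was -0.47, at chr5:64000001-64500000, and the lowest 5 included the nearby bins chr5:63000001-63500000 and chr5:67500001-68000000. The highest was 0.64, at chr11:114000001-114500000, with 10 members among 11 naive-list peaks, and the highest 5 included chr11:113000001-113500000 and chr11:114500001-115000000.

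Which chromosomal partners the member bins touched differed more. Contact among bins with at least 5 members on different chromosomes was 1.34 times the mean between chromosomes in plasma cells and 1.65 times in naive B cells, a log2 ratio of -0.30. It rested on 154551 read pairs in plasma cells and 215773 in naive B cells. Among bins with at least 5 plasma-only peaks and at most 1 member the values were 1.73 in plasma cells and 1.76 in naive B cells, a log2 ratio of -0.03. Among bins with at least 5 shared peaks and at most 1 member they were 1.71 in plasma cells and 1.80 in naive B cells, or -0.08. By share of whole read pairs the contrast was smaller. These log2 ratios were -0.22 for the member class, -0.08 for the plasma-only class and -0.12 for the shared class. Bins with 50% or more members touched bins with no naive-list peak more in plasma cells, at 0.794 times the mean, than in naive B cells, at 0.661 times, a log2 ratio of 0.26. With bins under 25% members they had 1.12 times the mean in plasma cells and 1.20 times in naive B cells.

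**Figure D5:**
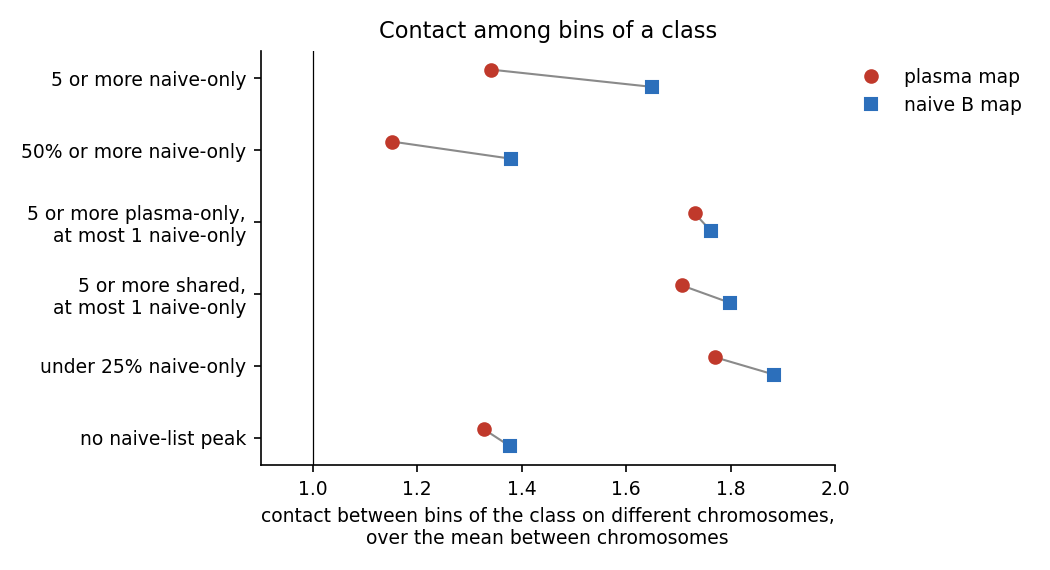
Contact between 500 kb bins of the same class on different chromosomes, over the mean contact between chromosomes (horizontal axis, cut at 0.9), in the plasma cell map (red circles) and the naive B cell map (blue squares), with 1 map per cell type and no error bars. The largest difference is among bins with 5 or more naive-only peaks, at 1.34 in plasma cells and 1.65 in naive B cells.

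Starting compartment was limited to 1 range here as well, which narrows it but does not match the classes. Among bins with a naive component of 0 to 1, the log2 ratio was -0.36 for at least 5 members. It was -0.10 for at least 5 plasma-only peaks with at most 1 member, and -0.09 for at least 5 shared peaks with at most 1 member. By share of whole read pairs these were -0.27, -0.15 and -0.11, in that order. The ratio of contact was -0.45 among the 41 bins of that range with no naive-list peak, so a low ratio was not particular to member bins. That last value rests on 965 read pairs in plasma cells and 1699 in naive B cells.

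At the named loci the bins did not all follow the median. The bin of Pax5 had 10 members among 16 naive-list peaks and a component of 1.25 in plasma cells and 1.04 in naive B cells. The bin of Irf4, with 8 of 13, had 1.36 in plasma cells and 1.35 in naive B cells, and that of Prdm1, with 7 of 14, had 1.42 in plasma cells and 1.26 in naive B cells. The bin of Bcl6, with 2 of 4, had 0.42 in plasma cells and 0.80 in naive B cells. The bin of Ell2, with 3 of 8, had 1.07 in plasma cells and -0.07 in naive B cells. RNA in plasma cells was higher at Ell2 but lower at Pax5, although both bins had a higher component. Whether the component went with RNA was not tested. The strongest members were mixed too. Of the 10 with the highest scores, 8 lay in bins with a lower component in plasma cells, near the share of 68.0% for all used members with a score of at least 500. The largest difference was -1.04, in the bin of chr3:143336183-143338837.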

How the data were processed

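The authors deposited ATAC peak lists with 1 score per peak, RNA tables with estimated counts and TPM per transcript, and TCC contact maps whose signal is balanced in bins of 500 kb and 2 Mb, per the file headers and values. Per the submitters' processing notes, the tools included Bowtie, HOMER, Picard, MACS 1.4 and kallisto, and the build was mm9. No source used here gives other settings, pooling or the ATAC depth. The score fits the usual MACS score, -10 times log10 of p, which no source here states. The ChIP samples and the deposited interaction lists were not used here.

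Peaks were compared by overlap of at least 1 base, and gaps run edge to edge. Each map was scaled to the same mean row sum. The order of its bins was read from empty bins that open each chromosome, with room left for the last peak of the chromosome before. A bin was used where its nonzero entries with other chromosomes were 0.5 or more of the median bin's, in the plasma as in the naive map. Ratios are log2 of plasma over naive mean contact, centred on the median of used bins. The component is the leading eigenvector, per chromosome, of the correlations between bins of distance-corrected contacts. Whole read pairs were recovered from the steps of low values, with 99.95% of naive and 100% of plasma entries within 0.05 of a whole number. Of 26599 gene IDs, 23874 matched a symbol, and Ighd had no value. No test was made. Intervals are 95% exact binomial or order-statistic intervals for counting error. The functions were tested on simulated data.

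Members, loci and lists were chosen with earlier results of these data known. Named regions follow a rule by rank: the highest scores, widest peaks, farthest peaks, longest runs, largest groups, fullest bins and extreme bins, and the 15 loci. The run on chromosome 10, the clusters of neighbouring bins and the bins at loci were named after values were seen. Loci have approximate positions: all 12 single genes are on the same chromosome in the GRCm38 annotation, and 11 have a length within 6 kb of it. No mm9 genome was at hand, so no sequence is printed. Python 3.11.15, numpy 2.4.6, pandas 2.3.3 and scipy 1.17.1 were used.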

Additional observations from a re-analysis of the deposited data

How the results depend on the processing

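No paired analysis was possible because each cell type had 1 library per assay. Of 41 alternative values, 16 stayed within the counting interval or within 1.5 times the count, none changed sign, and 25 moved. Counts, scores, widths, gaps and shares cannot be negative, so a change of sign was possible only for contact and component values. A score of at least 100 in both lists left 5602 naive-only peaks, and in the naive list alone 4272. With the latter, the median score was 176.8, the median width 1544 bp, the gap to a shared peak 25.51 kb, the clustered share 18.9%, and 170 bins had at least 5 members. The gap was 25.65 kb between midpoints and 25.55 kb with plasma peaks within 1 kb counted as shared. The clustered share was 11.6% at 5 kb and 42.2% at 25 kb.

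For bins with at least 5 members, all of the following are log2 or component values against all bins. With at least 3 members, contact was -0.077 within 2 Mb, 0.051 from 2 to 20 Mb and -0.16 among member bins, and the component -0.022. With 50% or more members, contact was -0.062 between chromosomes and -0.26 among them, and the component -0.16, against -0.05 with at least 5 members. With a naive component of 0 to 1, the component was -2.89e-05 against such bins (interval -0.060 to 0.051), so no difference was left. Contact among them was -0.36. From whole read pairs, contact was -0.021 between chromosomes and -0.22 among member bins. In 2 Mb maps, with at least 20 members in 37 bins, it was -0.076 between chromosomes and 0.17 from 2 to 20 Mb, and without chromosome ends -0.36 among member bins. The classes by share and by starting component, and read pairs among bins, were chosen after seeing the data. The cause of these shifts was not tested. ATAC depth is unknown and its effect on the count of members could not be measured.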
